A study of Mus musculus with 3 samples.

Results

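The 8 genes described here encode myelin proteins of the auditory nerve and of the central nervous tissue that it joins. They were taken by symbol, and each of Mbp, Pmp22, Cnp, Mag, Mal, Prx, Mobp and Mog matched 1 row of the 32285 genes in the deposited matrices. The data were single-cell RNA sequencing (10x Genomics 3′ chemistry) of dissociated cochleae of C57/B6 mice at postnatal day 14 (P14) and 28 (P28). Each library pooled 7 mice. P28 was measured in 2 such pools and P14 in 1, which has no replicate. No allele or treatment is given for any group. The dissected tissue included SGNs, and its epithelium came mainly from the middle to the apex of the cochlea. Cell barcodes were kept with 200 to 6000 genes and at most 15% of unique molecular identifiers (UMIs, 1 for each captured transcript) from mitochondrial genes, which left 1662 barcodes at P14 and 5651 and 7065 at P28. Their median depth was 2477, 2421 and 2037 UMIs. Levels are given as counts per 1e6 UMIs of a cell class (CPM), with a 95% exact Poisson interval where 1 is printed, and shares have exact binomial intervals. All of these intervals cover counting error only.

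Myelin is a stack of membrane that a glial cell wraps around an axon. Spiral ganglion neurons (SGNs), which carry signals from the hair cells to the brainstem, are wrapped by Schwann cells (SCs) and satellite glial cells (SGCs) in the cochlea, and by oligodendrocytes beyond the glial transition zone, where the nerve becomes central. Both kinds of myelin contain myelin basic protein (Mbp), which holds the cytoplasmic membrane faces together, the phosphodiesterase of non-compact myelin Cnp, the axon-facing adhesion molecule Mag and the raft proteolipid Mal. Pmp22, a 4-pass protein of compact myelin, and periaxin (Prx), a PDZ protein that ties the Schwann cell membrane to the basal lamina, mark peripheral myelin. Mobp and Mog, a basic protein and a surface immunoglobulin protein, mark the myelin of oligodendrocytes.

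The promoters of the genes that separate peripheral from central glia are shown because the levels below turn on this split. Sequences are from RefSeq (GRCm38.p6), read in the direction of the gene and ending just before its start. Matches to ACAAAG (bound by SOX factors such as Sox10), GCGTGGG (EGR factors such as Egr2), and CTGGCAC or CTGGTAC (Myrf) on either strand are in capitals. Prx lies at chr7:27499324-27520214 on the plus strand, and the bases before it are at chr7:27499074-27499323. Mobp lies at chr9:120149707-120181484 on the plus strand, with chr9:120149492-120149706 before it, from which 35 bases inside the annotated gene model were left out. Mog lies at chr17:37010743-37023398 on the minus strand, with chr17:37023399-37023648 before it. Mag, found in both kinds of myelin, lies at chr7:30899176-30914873 on the minus strand, and its most upstream start follows chr7:30914923-30915172.
Prx: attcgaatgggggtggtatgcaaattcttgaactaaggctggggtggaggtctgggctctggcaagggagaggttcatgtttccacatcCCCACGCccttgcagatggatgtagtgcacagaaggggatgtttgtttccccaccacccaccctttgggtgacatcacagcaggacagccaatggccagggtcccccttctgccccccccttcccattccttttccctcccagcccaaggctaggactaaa
Mobp: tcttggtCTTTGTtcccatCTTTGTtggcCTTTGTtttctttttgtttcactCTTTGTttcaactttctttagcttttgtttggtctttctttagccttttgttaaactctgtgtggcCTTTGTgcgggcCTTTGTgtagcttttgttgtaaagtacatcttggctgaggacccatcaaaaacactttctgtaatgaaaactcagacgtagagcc
Mog: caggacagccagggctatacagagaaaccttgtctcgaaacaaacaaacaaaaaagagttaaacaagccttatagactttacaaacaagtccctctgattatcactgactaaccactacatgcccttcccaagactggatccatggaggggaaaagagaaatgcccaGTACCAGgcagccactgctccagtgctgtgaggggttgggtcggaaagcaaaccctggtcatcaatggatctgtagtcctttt
Mag: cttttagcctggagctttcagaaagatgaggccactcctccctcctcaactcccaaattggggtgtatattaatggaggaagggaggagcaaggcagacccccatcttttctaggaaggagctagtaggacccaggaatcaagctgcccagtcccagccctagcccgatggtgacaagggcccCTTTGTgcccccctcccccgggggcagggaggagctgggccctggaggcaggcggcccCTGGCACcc

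The single match in Prx was CCCACGC, an EGR match on the opposite strand 161 bases before the start, and 4.3% of 32851 windows of 250 bases before RefSeq starts held one. Mobp had 6 copies of CTTTGT, the SOX motif read on the opposite strand. At least 1 copy of this motif on either strand was present in 16.5% of windows, and 1 window of all (0.00304%), the one of Mobp itself, held 6 or more. Mog had 1 Myrf match, GTACCAG, at 83 bases before the start, a form of the motif held by 1.83% of windows. Mag had CTTTGT 67 bases and CTGGCAC 9 bases before its start, the second found in 4.19% of windows. Cnp had a match to ACAAAG and to CTGGCAC, and neither the 4 windows of Pmp22 nor the window of Mal had any of the motifs. The motifs were chosen with the expression values known, and a match describes letters in a window and not a bound site. No RefSeq window was used for Mbp.

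Cells were grouped by clustering in which the 8 genes and 61 related genes were not used, and clusters were named from marker genes. At P28, 67 and 41 cells were SC/SGC-like. All 11 SC/SGC markers were detected in both groups of cells. In the P14 library, 40 barcodes with SC/SGC markers (9 of 11 detected) were found only after a mixed cluster of 110 cells was clustered again, a step added after the data were seen. They also held 8 of 9 oligodendrocyte markers, against 3 of 9 and 9 of 9 in the P28 cells, and 7 of 8 astrocyte markers, against 4 and 7. Summed, the oligodendrocyte markers were at 826 CPM in these barcodes against 268 and 338 CPM in the P28 cells. The astrocyte markers summed to 539 CPM against 127 and 469 CPM. These P14 barcodes are called mixed glia, and are not set against the P28 cells as 1 cell type. Red blood cell markers summed to 30763 CPM in the SC/SGC-like cells of P28 replicate 2, against 521 CPM in P28 replicate 1 and 1266 CPM in the P14 glia. Fibroblast markers summed to 3387 and 3045 CPM in the P28 SC/SGC-like cells (5 and 6 of 8 detected), against 1228 and 1697 CPM in the cells that were neither glia nor SGN-like, and to 242 CPM in the P14 glia. SGN markers summed to 1596 CPM in the P14 glia (8 of 10 detected), against 283 CPM in the other P14 cells. In the P28 SC/SGC-like cells they summed to 254 and 175 CPM. The naming rule for mixed glia allowed the SGN marker Stmn2 among the leading genes. The part of any of these lists in the values below was not tested.

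In P28 SC/SGC-like cells Pmp22 and Mbp were the most abundant of the 8 genes. The kit counts a transcript once, at its 3′ end, so levels of different genes are compared as CPM with no scaling by length. Pmp22 was at 5761 CPM (818 UMIs) in replicate 1 and 4834 CPM (443 UMIs) in replicate 2. Mbp followed at 3937 CPM (559 UMIs) and 3612 CPM (331 UMIs). The 95% intervals of the genes did not overlap in either library, from 5373 to 6169 CPM against 3617 to 4277 CPM in replicate 1 and from 4395 to 5306 CPM against 3233 to 4023 CPM in replicate 2. Cnp followed in both libraries, at 2127 and 1397 CPM. Mal was at 1409 and 840 CPM and Prx at 1070 and 862 CPM. In replicate 1 the interval of Mal (1220 to 1618 CPM) overlapped that of Prx (907 to 1255 CPM), and in replicate 2 the order of this pair turned within its intervals. Mag was low, at 106 and 65.5 CPM, from 15 and 6 UMIs. Mobp and Mog had 0 UMIs in all 108 cells, and the 95% exact Poisson intervals reach up to 26.0 CPM in replicate 1 and 40.3 CPM in replicate 2.

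The same genes were found in most of the P28 glial cells. Mbp had a UMI in 95.5% and 97.6% of SC/SGC-like cells and Pmp22 in 94.0% and 97.6%, at a median depth of 1560 and 1691 UMIs. In outer hair cells (OHCs), which make no myelin and had a median depth of 5242 and 3752.5 UMIs, Mbp had a UMI in 6.93% and 4.58% of cells and Pmp22 in 5.82% and 5.28%. The glial shares thus stood above those of OHCs although the glial barcodes were shallower. Other classes differed from OHCs in Pmp22, which was at 17.8 and 16.6 CPM in OHCs. It was at 5.16 and 1.68 CPM in inner hair cell-like cells and at 146 and 139 CPM in fibroblast-like cells. Prx was detected in 48 of 67 and 30 of 41 glial cells, and Mag in 12 and 6. After thinning each cell to 1000 UMIs, which left 51 and 30 glial cells, Mbp stayed in 94.1% and 90.0% of cells, Prx in 60.8% and 63.3%, and Mag in 7.84% and 10.0%. Of the 67 cells of replicate 1, 47 had both Pmp22 and Prx, and of the 41 of replicate 2, 30 did.

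Clustering the SC/SGC-like cells again, without the 8 genes and related lists, gave 3 groups, of 32 and 14, 15 and 9, and 20 and 18 cells in the P28 libraries. Pmp22 was at 7524 and 7090 CPM in the first, 7440 and 7503 CPM in the second, and 3773 and 3150 CPM in the third. Prx was at 1643 and 1333 CPM, 1235 and 1413 CPM, and 621 and 513 CPM in the same order. The third group was thus the lowest for this peripheral pair in both libraries. The same held for Mbp (2864 and 2692 CPM), Cnp (1485 and 1007 CPM) and Mal (1015 and 641 CPM). Mag, on 5 UMIs there in replicate 1, was not the lowest in that library. The genes that led the third group were Sparcl1, C1qb, Mdk, Tnfrsf11b, Slc1a2, Fn1, Emcn, Cavin2, Colec12 and Cldn11. This group was also the deepest, with a median of 3274.5 and 2962 UMIs. The first had 1115.5 and 953 and the second 2180 and 1691. The part of depth or of RNA from other cells was not tested.

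**Figure D1:**
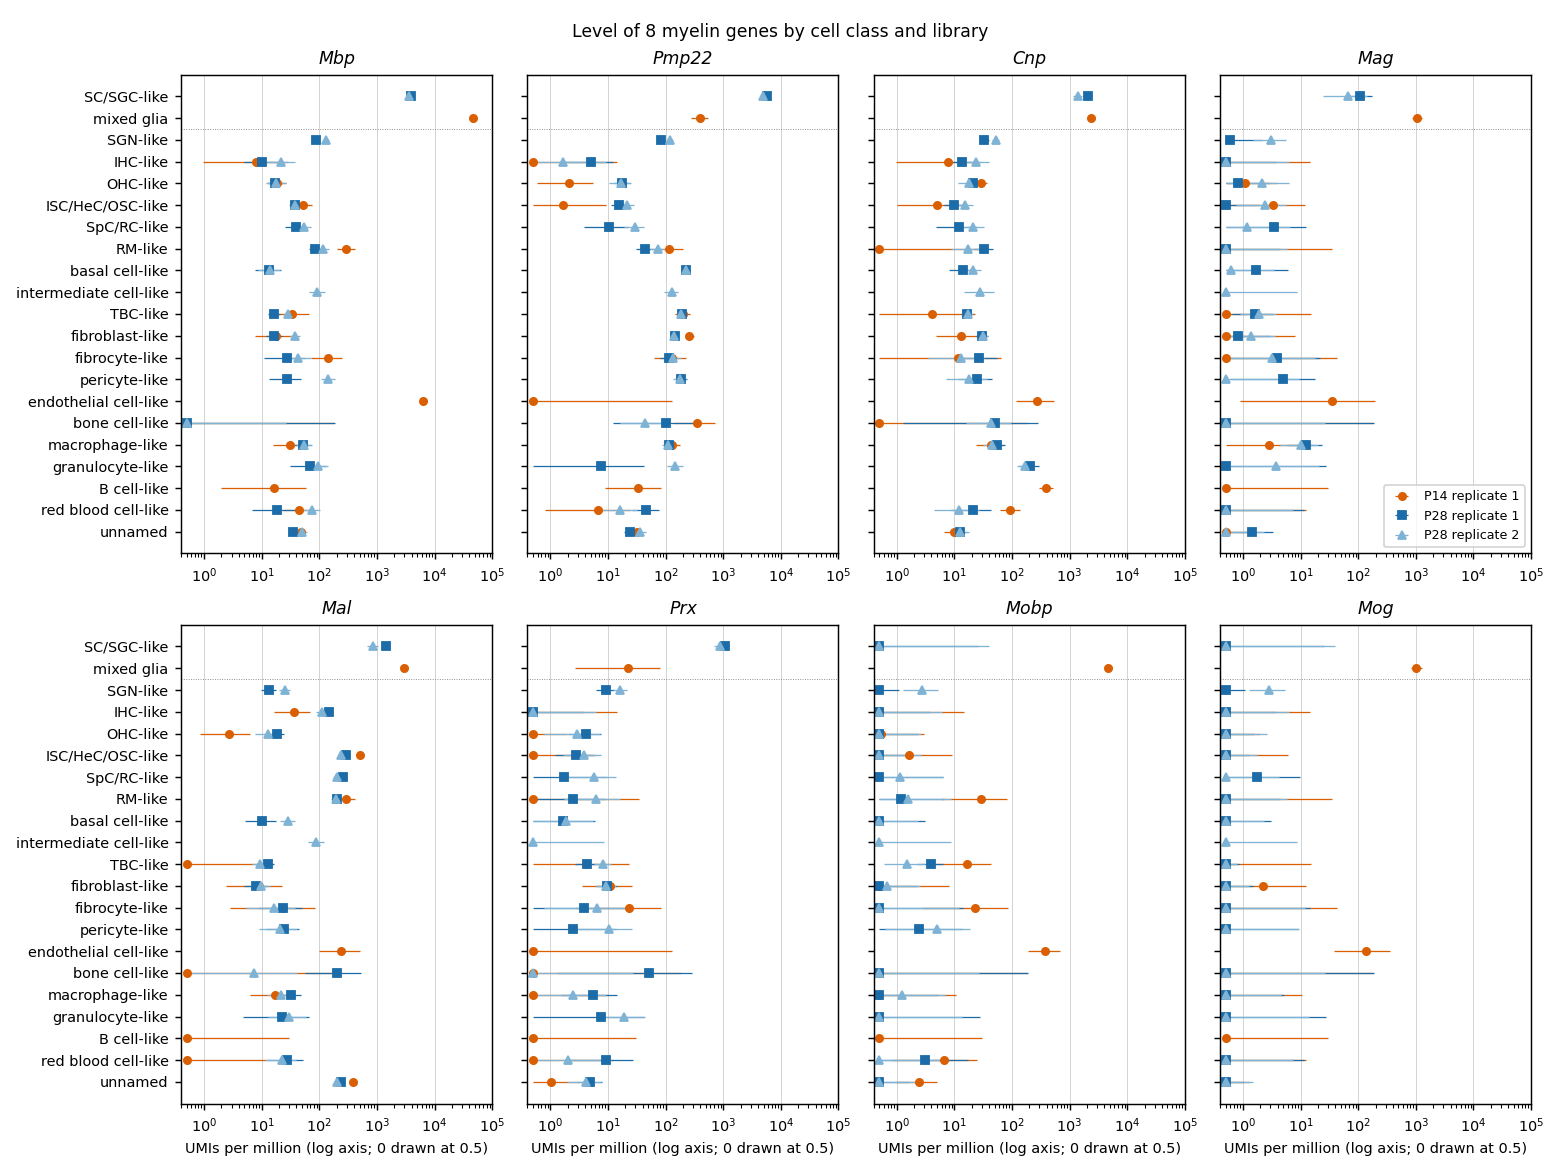
Level of each of the 8 genes (x axis, CPM, log axis, 0 drawn at 0.5) in each cell class (y axis), with P14 in orange, P28 in blue and 95% exact Poisson intervals as lines. The P28 SC/SGC-like cells are highest for Pmp22 at 5761 and 4834 CPM, while Mobp and Mog are at 0 there and at 4602 and 1024 CPM in the P14 mixed glia.

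The comparison of SC/SGC-like cells with all other cells asked which myelin genes belong to the glial class. It was made at P28 with the UMIs summed per side and library, 2 sums against 2. Prx, at 1070 and 862 CPM in the class against 5.11 and 7.11 CPM elsewhere, had the highest log2 fold change of the members, 7.22 ± 0.24 (SE, edgeR quasi-likelihood test with Benjamini-Hochberg adjustment, adjusted p = 1.87e-08). Mbp stood at 35.9 and 54.8 CPM in the other cells, a log2 fold change of 6.28 ± 0.27 (adjusted p = 7.35e-08, edgeR). Cnp stood at 22.1 and 26.6 CPM elsewhere, a log2 fold change of 6.09 ± 0.25 (adjusted p = 6.9e-08, edgeR). In each of these genes both class sums lay above both sums of the other cells.

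Pmp22 was at 89.4 and 110 CPM in the other cells, and its log2 fold change was 5.63 ± 0.23 (adjusted p = 6.9e-08, edgeR). Mag had 15 and 6 UMIs in the class and 35 and 44 UMIs in all other cells together, a log2 fold change of 5.64 ± 0.52 (adjusted p = 3.14e-05, edgeR). Mal, which epithelial cells also use for apical membrane traffic, stood at 95.5 and 72.0 CPM elsewhere and had the smallest of the significant differences, 3.67 ± 0.25 (adjusted p = 2.65e-06, edgeR). Mobp was tested with 0 UMIs in the class and was not called, and no fold is given. Mog was too sparse to be tested.

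Of the 7 members tested, 6 were called higher and 0 lower, at an adjusted p under 0.05. Of all 14911 genes tested, 4.23% were called higher and 5.82% lower (631 and 868 genes). With DESeq2 the counts of all genes were 977 higher and 671 lower, and among 1528 genes with at least 10 UMIs in every sum they were 384 and 299. The median log2 fold change of all genes tested was -0.37, and those of the 6 members called lay between 3.67 and 7.22. The cells were grouped by other genes of the same barcodes, and the sides of a library come from the same pooled mice, so the p-values measure the spread between 2 pools only.

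The genes that work with these proteins were described from 4 lists. Of 23 other myelin sheath proteins, 19 were tested, of which 15 were higher, 1 was lower and 3 were not called, with a median log2 fold change of 3.17. Claudin 19 (Cldn19), a tight junction protein of the Schwann cell autotypic junctions, led with 75 and 27 UMIs in the class against 24 and 26 elsewhere, a log2 fold change of 8.56 ± 0.35 (adjusted p = 6.9e-08, edgeR). Art3 (8.09), Ncmap (7.67), a protein of non-compact peripheral myelin, the connexin Gjb1 (7.07), which forms channels between the layers of Schwann cell myelin, and the periaxin partner Drp2 (5.83) had the next log2 fold changes of the list.

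Some list genes share a sequence family with members. Cldn11 belongs to the claudins, which resemble Pmp22 in their 4-pass fold, and it forms the tight junctions of oligodendrocyte myelin and of strial basal cells. It was the list gene that was lower in the class, with 8 and 9 UMIs (56.3 and 98.2 CPM) against 252 and 344 CPM elsewhere, a log2 fold change of -2.12 ± 0.32 (adjusted p = 0.00126, edgeR), and was not called at a finer clustering (-0.74). The MARVEL-domain relatives of Mal were both higher, Pllp with a log2 fold change of 4.83 and Cmtm5 with 4.86. Thus Cldn19 and Cldn11 differed in opposite directions, and Mal, Pllp and Cmtm5 in the same direction.

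Of 13 genes for myelin lipid and cholesterol synthesis, 12 were higher and 1, Cers2, was not called, with a median of 2.52. Fa2h, which makes the hydroxylated fatty acids of myelin galactolipids, had the largest log2 fold change of this list, 6.08. Of 17 regulators and receptors, 16 were tested, of which 8 were higher and 8 were not called, with a median of 1.74. Egr2, the zinc-finger factor that drives the Schwann cell myelin genes, was at 197 and 186 CPM against 0.94 and 1.03 CPM, a log2 fold change of 7.49, and Pou3f2, a POU factor that acts before Egr2, had 6.01. Of 8 genes of immature and non-myelinating glia, 3 were higher and 5 were not called, with a median of -0.05. The 3 include Gfap, which had 0 UMIs in the class in replicate 1 and 21 in replicate 2, all in 1 barcode, so this call rests on that barcode. Myrf, the regulator of oligodendrocyte myelin genes, was among the regulators not called.

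**Figure D2:**
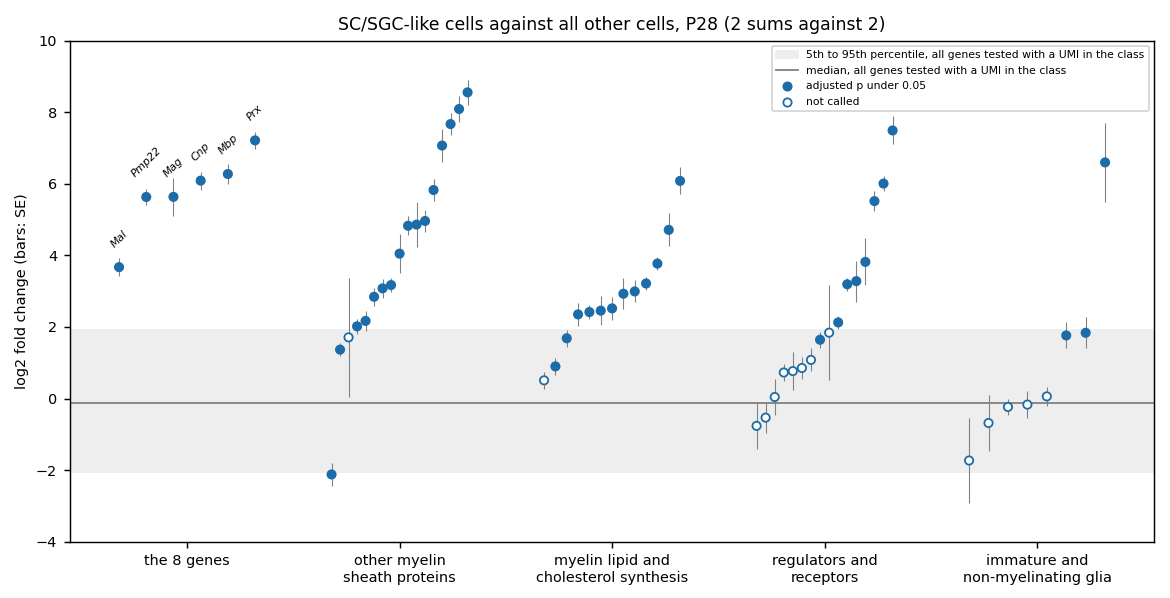
Log2 fold change of SC/SGC-like cells against all other cells at P28 (y axis) for the 8 genes and the 4 lists (x axis), with bars for the SE, filled points for an adjusted p under 0.05, and only genes with a UMI in the class. The 6 members drawn lie between 3.67 and 7.22, and Cldn11 is the filled point below 0, at -2.12.

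The P14 mixed glia had another set of myelin transcripts. Mbp was at 47274 CPM, from 4294 UMIs in 33 of the 40 barcodes. Mobp followed at 4602 CPM (418 UMIs in 24 barcodes). Mog was at 1024 CPM (93 UMIs in 15 barcodes). Pmp22, in contrast, had 36 UMIs (396 CPM) in 6 barcodes and Prx had 2 UMIs. In P28 SC/SGC-like cells, Mobp and Mog were at 0 and Pmp22 was the first of the 8. With 1 library at P14 no test of the ages was possible, and age, library and the kind of glia captured cannot be told apart.

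A single barcode decided several of the P14 values. It held 21584 of the 90833 UMIs of the mixed glia, and gave 87 of 95 Mag UMIs (91.6%), 213 of 269 Mal UMIs (79.2%), 68 of 93 Mog UMIs (73.1%) and 140 of 217 Cnp UMIs (64.5%). Without it, Mag fell from 1046 to 116 CPM, Mal from 2961 to 809 CPM, Mog from 1024 to 361 CPM and Cnp from 2389 to 1112 CPM. Mobp was at 4534 CPM without it and Mbp at 59568 CPM, so these genes did not rest on this barcode.

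The 8 genes together made up 5.97% of all UMIs of the P14 glia and 1.44% and 1.16% of those of the P28 cells. Mbp gave 79.2% of the 5424 UMIs of the 8 genes at P14, Mobp 7.71%, Pmp22 0.664% and Prx 0.0369%. At P28, Pmp22 gave 40.0% of 2046 UMIs in replicate 1 and 41.6% of 1064 in replicate 2, and Mbp 27.3% and 31.1%. Prx gave 7.43% and 7.42%. The P28 pair thus resembled each other more closely than the P14 library in the share of each of these genes.

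**Figure D3:**
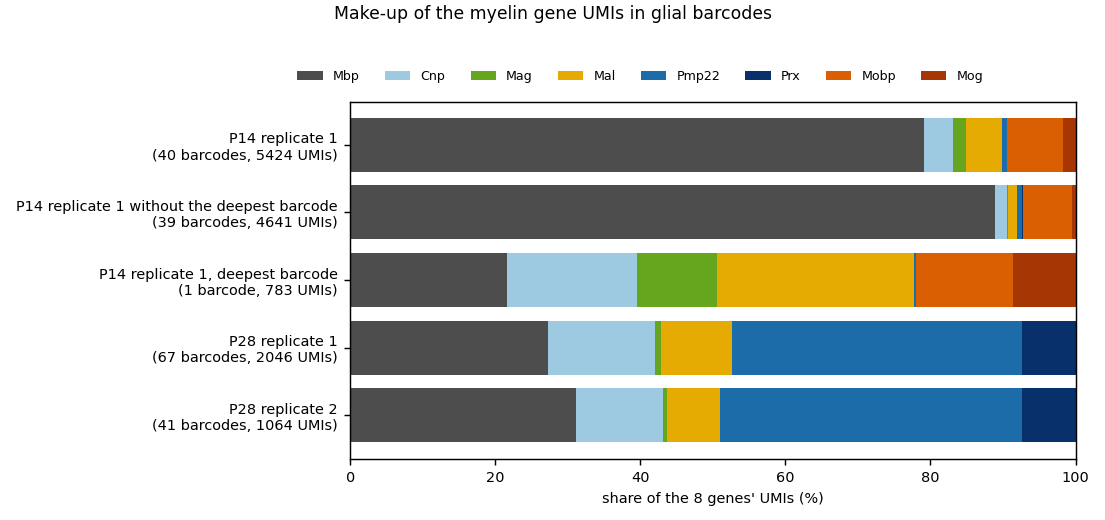
Share of the UMIs of the 8 genes (x axis, percent) that each gene gave in the glial barcodes of each library (bars), with the P14 library also shown without its deepest barcode and for that barcode alone. Mbp gives 79.2% at P14, and Pmp22 gives 40.0% and 41.6% at P28, where Mobp and Mog give 0.

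Within the P14 mixed glia most UMIs of the central genes and of Pmp22 lay in different barcodes. Mobp or Mog was detected in 24 of the 40, with a median depth of 1166 UMIs, and Prx in 2, with 0 barcodes holding both. The 24 barcodes held 4262 Mbp UMIs, 3 Pmp22 UMIs and 0 Prx UMIs. The other 16 barcodes, at a median depth of 872.5 UMIs, held 32 Mbp, 33 Pmp22 and 2 Prx UMIs. The 6 barcodes with Pmp22 held 21, 6, 4, 2, 2 and 1 UMIs of it, and the first and second also held 1 Prx UMI each. A barcode with 2 Pmp22 UMIs, the deepest, also held 104 Mobp and 68 Mog UMIs, and the one with 1 held 8 Mobp UMIs. The 0 barcodes with Prx and a central gene rest on 2 Prx UMIs.

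Mbp filled a large share of some P14 barcodes. In 22 of the 40 it made up more than 1% of the UMIs, from 2.13% to 22.2% with a median of 12.2%. At P28 its highest share in a glial barcode was 1.29% in replicate 1 and 1.39% in replicate 2, and the median was 0.367% and 0.305%. The other 18 P14 barcodes ran from 0 to 0.843% with a median of 0.136%, inside the P28 range.

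**Figure D4:**
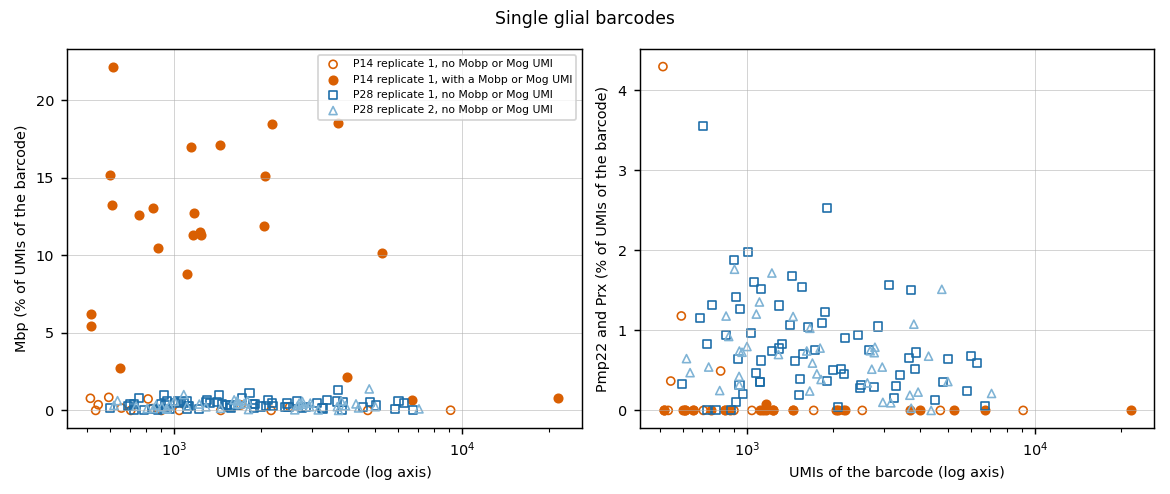
Share of a glial barcode's UMIs from Mbp (left, y axis in percent) and from Pmp22 with Prx (right) against its UMIs (x axis, log axis), with filled points for barcodes with a Mobp or Mog UMI. The filled points, all of P14, reach 22.2% Mbp, and the P28 barcodes stay at or below 1.39%.

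Some other genes of central and peripheral glia were counted in the P14 mixed glia and the P28 SC/SGC-like cells only. They were chosen after their values were seen and with no test, and P14 and P28 stand for these cells here. Tspan2 had 44 UMIs at P14 and Ermn, a cytoskeletal protein of oligodendrocytes, had 42. Both had 0 in the SC/SGC-like cells of both P28 libraries, while the other kept P28 cells held 171 and 126 Tspan2 and 0 and 11 Ermn UMIs. Hapln2, of the central nodes of Ranvier, had 21 at P14, of which the deepest barcode gave 20, and 0 at P28. Gfap, a filament of astrocytes, had 58 UMIs in 20 P14 barcodes and 0 and 21 UMIs at P28, the 21 in 1 barcode. Cldn19 had 1 UMI at P14 and 75 and 27 at P28, Ncmap 2 against 58 and 30, and Egr2 2 against 28 and 17. Pou3f1, the factor that acts with Pou3f2, had 2 against 72 and 25. Sox10, the factor shared by both glial lineages, had 12 UMIs at P14 and 40 and 33 at P28.

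The share of each gene's UMIs that came from glia differed between the 8 genes. At P14 the glia were 2.41% of cells and 1.22% of UMIs but held 94.9% of Mog, 94.1% of Mag, 93.1% of Mobp and 90.0% of Mbp UMIs. They held 52.7% of Cnp, 15.2% of Mal and 9.52% of Pmp22 UMIs. The deepest barcode alone gave 87 of the 95 glial Mag, 68 of 93 Mog, 213 of 269 Mal and 140 of 217 Cnp UMIs, so these 4 shares rest largely on it. At P28 the SC/SGC-like cells were 1.19% and 0.580% of cells, and held 54.9% and 32.4% of Prx, 38.9% and 20.6% of Mbp, 27.2% and 14.8% of Pmp22, and 7.89% and 4.40% of Mal UMIs. Every one of these P28 shares was lower in replicate 2, the library with fewer glial cells.

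At P28, Mobp and Mog UMIs lay outside the SC/SGC-like cells altogether. There were 24 and 25 Mobp UMIs in the kept barcodes of the 2 libraries, and 1 and 9 Mog UMIs. All 9 of the latter came from 1 SGN-like barcode of 19075 UMIs, which also held 32 Mbp, 20 Cnp, 8 Mag and 7 Mobp UMIs and 0 Prx. At P14 the highest level of Mbp and Mobp outside glia was in 10 endothelial cell-like barcodes from the same mixed cluster, with Mbp at 6394 CPM and Mobp at 380 CPM. A barcode of 7167 UMIs held 105 of their 185 Mbp UMIs and another of 2430 UMIs held 57, and the part of doublets or free RNA was not tested. Over all P14 cells other than glia, Mbp was 15.4 times as frequent as Mobp (477 and 31 UMIs), against 10.3 times in all P14 glial barcodes, 13.1 without the deepest and 1.62 in the deepest alone.

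Between SGN-like cells (334 and 294, at P28 only) and all other cells except glia, the question was whether neurons carry UMIs of the myelin genes above the level of the rest. Mbp was at 88.5 and 133 CPM in SGN-like cells against 27.4 and 42.2 CPM, a log2 fold change of 1.61 ± 0.25 (adjusted p = 0.000566, edgeR). Prx was at 9.06 and 16.1 CPM against 4.47 and 5.66 CPM, higher by 1.25 ± 0.31 (adjusted p = 0.00666, edgeR). Cnp was at 33.3 and 52.0 CPM against 20.3 and 22.5 CPM, higher by 0.93 ± 0.20 (adjusted p = 0.00331, edgeR). For these 3 genes both neuronal sums lay above both of the other sums. Mal was lower, at 13.4 and 25.4 CPM against 109 and 79.6 CPM, with a log2 fold change of -2.34 ± 0.26 (adjusted p = 7.91e-05, edgeR). Pmp22 (-0.02 ± 0.18, adjusted p = 0.917, edgeR), Mag (0.09 ± 0.60, adjusted p = 0.902, edgeR) and Mobp (0.42 ± 0.90, adjusted p = 0.686, edgeR) were not called.

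Of 7 members, 3 were thus higher and 1 lower, where 34.9% and 41.7% of all 15212 genes were called higher and lower. The median log2 fold change of all genes was -0.16. SGN-like cells were deep as a class, with a median of 9116 and 12700.5 UMIs, but the class joined clusters of unlike depth. In replicate 1 a deep cluster of 168 cells held 2991587 UMIs and a shallow one of 148 cells held 388878. In replicate 2 the same clusters had 213 cells with 2900764 UMIs and 58 cells with 283222. Mbp was at 94.6 and 126 CPM in the deep cluster and at 46.3 and 219 CPM in the shallow one. The markers of SC/SGC (11 of 11 detected) were also found in SGN-like cells, at a summed 748 and 979 CPM. In the cells that were neither glia nor SGN-like, 11 of 11 were detected too, at 376 and 622 CPM. The part of attached glia or free RNA was not tested. With barcodes limited to 3000 genes and 15000 UMIs, Mbp, Cnp and Prx were no longer called, with log2 fold changes of 0.99, 0.94 and 1.55. Of the lists, 8 sheath genes were higher and 6 lower of 19 tested, 5 lipid genes were higher and 7 lower of 13, 4 regulators were higher and 12 lower of 16, and 4 genes of immature glia were higher and 2 lower of 7. Among the lipid genes, and chosen after its value was seen, Ugt8a, which makes galactosylceramide, was higher in SGN-like cells by 6.80 (adjusted p = 2.45e-08, edgeR), at 220 and 225 CPM against 1.76 and 2.05 CPM.

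Across the 16 named classes with sums in at least 2 libraries, each class was compared with the average of the others. Of 112 pairs of a member and a class, 21 were higher and 17 lower, against a background of 17.2% higher and 7.49% lower over all genes and classes. Without P28 replicate 1 the pairs lower numbered 7, and without P28 replicate 2 they numbered 10. In SC/SGC-like cells 6 of 7 members were higher, where 5.88% of genes were. The average includes classes with no UMIs of a sparse gene, so a low gene can be called on few UMIs, as Mobp was in tympanic border cell (TBC)-like cells (log2 fold change 2.79, where 23.9% of genes were called higher), which held 17 of the 24 Mobp UMIs of P28 replicate 1.

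Mal was found in epithelial classes. Its P14 level of 501 CPM and its P28 levels of 287 and 242 CPM were measured in inner sulcus, Hensen's and outer sulcus cell-like (ISC/HeC/OSC-like) cells, a log2 fold change of 3.38 ± 0.22 against the other classes (adjusted p = 2.45e-16, edgeR), where 24% of genes were called higher. Spindle and root cell-like cells had 259 and 205 CPM and Reissner's membrane-like cells 295, 200 and 195 CPM, with log2 fold changes of 2.44 and 2.23, where 13.5% and 15.3% of genes were called higher. The P14 level in ISC/HeC/OSC-like cells lay above both P28 intervals, with no test. In inner hair cell (IHC)-like cells Mal was at 35.7 CPM at P14, below the intervals of 149 and 113 CPM at P28, and at a median depth of 1025.5 UMIs against 9310 and 8007.5.

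Pmp22 was found in several classes outside glia. In pericyte-like cells it was at 186 and 176 CPM and in macrophage-like cells at 131, 116 and 109 CPM, and neither class was called. Pmp22 was at 226 CPM in both libraries in basal cell-like cells, 196, 194 and 186 CPM in TBC-like cells and 258, 146 and 139 CPM in fibroblast-like cells. The log2 fold changes were 1.59 ± 0.35, 1.44 ± 0.31 and 1.26 ± 0.32 (adjusted p = 0.000497, 0.000257 and 0.00175, edgeR), where 18%, 23.9% and 22.2% of genes were called higher. In IHC-like cells it was lower by 5.13 on the log2 scale and in OHC-like cells by 2.89, where 17.1% and 21.8% of genes were called lower. TBC-like cells alone held more Pmp22 UMIs than the glia in each P28 library, 838 against 818 and 865 against 443.

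Cnp was found in granulocyte-like and B cell-like barcodes. Granulocyte-like cells had 204 and 165 CPM, a log2 fold change of 2.57 ± 0.34 (adjusted p = 1.47e-07, edgeR), where 12.1% of genes were called higher. In the 66 B cell-like barcodes of the P14 library it was at 395 CPM, from 48 UMIs. Red blood cell-like cells had 94.5 CPM of Cnp at P14 but 21.4 and 12.2 CPM at P28. Mag was called in macrophage-like cells (log2 fold change 3.24 ± 0.66, adjusted p = 0.000236, edgeR), where 19.8% of genes were, on 1, 9 and 8 UMIs (2.86, 12.6 and 10.0 CPM).

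Over all kept barcodes, P14 lay outside both P28 intervals for all 8 members. Mobp was at 60.4 CPM against 0.976 and 1.07, Mog at 13.2 against 0.0407 and 0.386, and Mbp at 642 against 58.5 and 68.8 CPM. Pmp22 was at 50.9 CPM against 122 and 128 and Prx at 1.75 against 11.3 and 10.5 CPM. Cnp was at 55.4 CPM against 34.2 and 32.0, Mag at 13.6 against 2.03 and 2.15, and Mal at 239 against 103 and 75.1 CPM. The central pair and the 4 genes of both kinds of myelin were thus higher, and Pmp22 and Prx lower, in the P14 library as a whole. Glia were 2.41% of the kept cells at P14 and 1.19% and 0.580% at P28. Fibroblast-like cells numbered 149 at P14 and 876 and 1360 at P28, TBC-like cells 69, 942 and 1223, and SGN-like cells 0, 334 and 294. Within classes, the P14 interval of Pmp22 lay above P28 in fibroblast-like cells (258 against 146 and 139 CPM) and overlapped it in TBC-like cells. It lay below in OHC-like (2.13 against 17.8 and 16.6 CPM) and ISC/HeC/OSC-like cells (1.66 against 15.5 and 21.3 CPM). The part of the cell mix was not tested. In the cells other than glia, the P14 intervals of Cnp, Mag and Mog overlapped those of P28. Cnp was at 26.6 CPM there against 22.1 and 26.6, Mag at 0.817 against 1.43 and 1.90, and Mog at 0.681 against 0.0409 and 0.388 CPM. The other members lay on the same side of P28 as over all kept barcodes. For Mbp, 2 endothelial cell-like barcodes gave 105 and 57 of the 477 P14 UMIs outside glia, and 6 and 4 of the 31 Mobp UMIs. Levels without these barcodes were not computed, so the P14 differences of Mbp and Mobp outside glia may rest on them. The deepest glial barcode alone gave 87 of the 101 Mag UMIs of the P14 library and 68 of the 98 Mog UMIs. It also gave 140 of the 412 Cnp and 213 of the 1773 Mal UMIs. Most of the P14 Mag UMIs thus came from this barcode, and the higher P14 level of Mag rests on it. Levels over all kept barcodes without this barcode were not computed, so the P14 difference of Cnp may rest on it too.

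The genes whose level was most like that of each member were taken from 11206 genes over 46 sums of a named class in a library, which share libraries and depth, and the correlations of log2(CPM + 10) are a description. For Prx they were Cldn19 (r = 0.930), Egr2 (0.923) and Ddn (0.914). Prx was at 1070 and 862 CPM in the P28 SC/SGC-like sums and far lower in all others, so its values rest largely on those sums. For Mobp they were Ermn (0.97), Hapln2 (0.954) and Prr18 (0.928), and for Mog Hapln2 (0.995), Prr18 (0.977) and Ermn (0.954). Mobp was at 4602 CPM in the P14 glia and 380 CPM in the P14 endothelial cell-like barcodes, and its values rest largely on these sums. Mog was at 0 in most sums, and the P14 glia, where 1 barcode gave 68 of 93 Mog and 20 of 21 Hapln2 UMIs, held 93 of the 98 Mog UMIs of that library, so these values rest largely on that sum. Pmp22 was most like Fmnl2 (0.80), Pou3f1 (0.780) and Ndrg1 (0.776), Mag was most like Gjb1 (0.911), Mmd2 (0.904) and Bcas1 (0.871), and Mbp was also like Bcas1 (0.889) and Luzp2 (0.867). The values of Mag rest on few UMIs too. The same P14 barcode gave 87 of the 95 Mag UMIs of the P14 glia, and the P28 SC/SGC-like cells held 15 and 6. Cnp was most like Reln (0.841), Fa2h (0.805) and Sh3bp5 (0.797). For Mal, the first were Tspan15 (0.885), Ttyh1 (0.855) and Itgb4 (0.837). Between members, r was 0.956 for Mobp with Mog, 0.723 for Pmp22 with Prx, and 0.0498 for Mobp with Pmp22.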

How the data were processed

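The authors deposited, for each library, the raw UMI counts per gene and barcode, which Cell Ranger made on mm10. The submitters' notes name version 6.0.1 and the matrix header 5.0.1. The counts carried no normalization and no filter on mitochondrial share.

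From 10125255 UMIs in 2513 barcodes at P14, and 35485894 in 11948 and 37530956 in 18196 at P28, barcodes were kept as described above. Doublets were not removed, because the caller marked 1, 0 and 1 barcodes. Between 4 and 10 kept barcodes were shared by a pair of libraries. Seurat 5.3.0 clustered P14 alone and P28 after integration (2000 variable genes, 30 components, resolution 1). Clusters were named from fixed markers and called X-like. UMIs were summed per class and library (at least 10 cells) and tested with edgeR 4.0.16 (quasi-likelihood, TMM, filterByExpr), with Benjamini-Hochberg adjustment over all genes tested. The SC/SGC-like and SGN-like comparisons had no library term because 2 libraries qualified, and the comparison of classes had one. P28 replicate numbers pair the sides of a library, which come from the same pooled mice, and deviations of same-numbered sums correlated at 0.161 over the 2 pairs in both comparisons.

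On simulated counts with 200 genes changed 4-fold, the edgeR fit without and with the replicate block recovered 79% and 77.5% in the SC/SGC-like comparison (14824 genes). It recovered 92.5% and 91% in the SGN-like comparison (15144 genes), and 97.5% in the comparison of classes (11341 genes). Of the calls, 3.66% and 1.27%, 2.63% and 2.67%, and 1.52% were false. The changed genes were drawn from abundant genes only. In the SC/SGC-like comparison Cnp, Mag, Prx, Mobp and Mog were too sparse to be drawn, so recovery at their levels was not measured.

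The 8 genes, the lists and the motifs were chosen with earlier results of these data known. Beside the members, the text names the 8 list genes in each direction with the largest fold change among those called in the SC/SGC-like comparison, list genes of a member's sequence family, and the 3 genes most like each member, of which 1 is not reported here. The other list genes named were chosen after their values were seen. Mobp overlaps another annotated gene on its strand, and Cnp and Prx overlap antisense genes, so their counts are uncertain. Settings tried were other limits on genes, UMIs and mitochondrial share, other clusterings, doublet scores, RLE scaling, DESeq2 1.42.0, other filters on low counts, thinning, and leaving out libraries.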

Additional observations from a re-analysis of the deposited data

Results flagged for a closer look

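Barcodes over the 15% mitochondrial limit entered no main comparison, and those at or below 30% entered only the setting with that limit. That setting had 173 and 171 SC/SGC-like cells at P28, against 67 and 41 in the main comparison. The barcodes over 15% held UMIs of all 8 genes, above what a count of 0 allows. Over the 3 libraries there were 5730 Mbp, 4445 Pmp22, 2405 Mal, 1334 Cnp, 704 Prx, 231 Mobp, 109 Mag and 21 Mog UMIs. These barcodes numbered 498 at P14 and 5986 and 10778 at P28. Mbp was at 3068 CPM in them at P14 against 642 CPM in the kept barcodes, and at 207 and 148 CPM against 58.5 and 68.8 CPM at P28. Prx was at 44.0 and 25.4 CPM against 11.3 and 10.5 CPM at P28, and Pmp22 at 260 and 170 CPM against 122 and 128 CPM. No cause was tested.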

How the results depend on the processing

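The 6 members called higher in SC/SGC-like cells stayed higher in every setting that gave a test, with log2 fold changes from 3.39 (lowest of Mal) to 7.39 (highest of Prx), except that Mag was not among the genes with at least 10 UMIs in every sum. With the replicate block, 591 genes were higher and 988 lower in that comparison, and 5434 and 6461 in the SGN-like comparison, and it changed no call of a member in either. Without the block in the comparison of classes, 21 pairs of a member and a class were higher and 13 lower. Genes higher in SC/SGC-like cells numbered 1233 with up to 30% mitochondrial UMIs, 977 with DESeq2 and 384 with at least 10 UMIs in every sum, and genes lower numbered 1527 and 299 in the first and last of these. In SGN-like cells 2350 genes were higher and 2657 lower with at most 3000 genes and 15000 UMIs, and 4182 were lower with at least 10 UMIs in every sum. That filter kept fewer genes (1528 and 10844) and left no member in the comparison of classes. Without 1 library, between 7 and 21 pairs of a member and a class were lower, the fewest without P28 replicate 1 (7) and 10 without P28 replicate 2. Thinned to 1000 UMIs, Mbp was found in 92.1% of SC/SGC-like cells, Mal in 59.6%, Prx in 62.1% and Mag in 8.92% (mean of the P28 libraries). Members that had not been called changed sign. Mobp in SC/SGC-like cells was at 2.39 with up to 30% mitochondrial UMIs and 0.63 with DESeq2. In SGN-like cells Mobp was at -0.24 and Mag at -0.18 with up to 30% mitochondrial UMIs, Mag at -0.069 without hair cells and at -1.43 without P28 replicate 2 (0.86 without replicate 1), and Pmp22 at 0.14 without P28 replicate 1 (-0.095 without replicate 2). The cause of these changes was not tested. Leaving out a P28 library left 1 sum against 1 in the SC/SGC-like and SGN-like comparisons, which gives values and no test (Prx up to 7.71). Mag rests on 15 and 6 UMIs in the P28 SC/SGC-like cells.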
